A study of Mus musculus with 48 samples.

Results

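The matricellular and CCN genes described here are Ccn1, Ccn2, Ccn5, Thbs1, Thbs4, Postn, Tnc, Sparc, Tnxb and Itgbl1. They are 10 named genes of the 56748 in the deposited expression table, and all 10 passed the filter on low counts that left 15637 genes for testing. The 10 were picked by name with earlier results of these data in view, so their values below are a description, and the counts of members that passed a test are given beside the share of all genes that did. RNA was sequenced from the tibialis anterior (TA) muscle, a fast-fiber muscle of the lower leg, of 48 male mice aged 39 to 55 weeks. Mice carried KPC tumors or were cancer-free controls, and muscles were taken every 4 h from CT18 to CT38 (CT, circadian time), which made 6 times with 2 mice per genotype, condition and time.

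The KPC mice had received murine pancreatic cancer cells, derived from a tumor of a mouse model of the disease, by injection into the pancreas, and the controls had received saline there. FoxP1SkmKO mice were homozygous for a floxed Foxp1 allele (Foxp1fl/fl) and carried Acta1-cre, in which the skeletal actin promoter confines Cre to muscle fibers, so fibroblasts, tendon cells and vessels keep Foxp1. The comparison mice, called WT, are described as Foxp1fl/fl without Cre in the series design and as C57BL/6J in the sample labels and in the study's methods, and that difference was not settled here. Mice of all groups were held in constant darkness from CT0 until collection, so CT18 and CT22 fall in the active phase, CT26 to CT34 in the rest phase and CT38 in the next active phase. Each genotype and condition thus had 12 mice, and each library came from a single mouse.

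Matricellular proteins are secreted into the extracellular matrix but are not its load-bearing fibers. They bind integrins, collagens and growth factors and adjust how cells attach to and build the matrix, and in muscle they are made mostly by fibroblasts, tendon cells and vessel cells, with high levels at the junction with tendon and after injury. The CCN proteins Ccn1 (Cyr61) and Ccn2 (CTGF) are well known early responders to serum, stretch and the YAP and TEAD transcription factors, whereas Ccn5 (WISP2) lacks the C-terminal domain of the other CCN proteins. Thbs1 and Thbs4 are thrombospondins, Tnc and Tnxb are tenascins, Sparc and Postn bind collagen and aid its assembly, and Itgbl1 is a secreted protein with repeats like those of integrin beta subunits.

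The 250 bases before the RefSeq start are printed for members that carried the results below. Ccn1 and Tnxb passed the test of a single 24 h cosine fitted to the 48 libraries together. Sparc and Thbs4 were the most abundant members that were lower in KPC muscle. Sequences are from RefSeq's promoter table (assembly GRCm38.p6), and each matched GRCm39 exactly once, which gave the positions. They are written 5′ to 3′ on the strand of the gene, with the motifs searched in capitals.
Ccn1: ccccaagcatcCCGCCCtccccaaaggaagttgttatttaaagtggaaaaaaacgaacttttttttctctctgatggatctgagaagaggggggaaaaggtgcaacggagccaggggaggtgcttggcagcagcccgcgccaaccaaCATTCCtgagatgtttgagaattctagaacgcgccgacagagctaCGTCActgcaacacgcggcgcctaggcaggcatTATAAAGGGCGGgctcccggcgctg
Tnxb: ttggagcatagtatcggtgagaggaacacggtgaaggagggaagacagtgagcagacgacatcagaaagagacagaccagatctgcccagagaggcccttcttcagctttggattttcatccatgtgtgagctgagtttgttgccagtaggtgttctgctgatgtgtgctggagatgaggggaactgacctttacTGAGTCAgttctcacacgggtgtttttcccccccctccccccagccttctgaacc
Sparc: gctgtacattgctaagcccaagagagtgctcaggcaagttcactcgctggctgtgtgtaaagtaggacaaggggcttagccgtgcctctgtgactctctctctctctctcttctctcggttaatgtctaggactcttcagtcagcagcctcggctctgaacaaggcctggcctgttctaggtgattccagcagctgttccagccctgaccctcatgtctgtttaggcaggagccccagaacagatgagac
Thbs4: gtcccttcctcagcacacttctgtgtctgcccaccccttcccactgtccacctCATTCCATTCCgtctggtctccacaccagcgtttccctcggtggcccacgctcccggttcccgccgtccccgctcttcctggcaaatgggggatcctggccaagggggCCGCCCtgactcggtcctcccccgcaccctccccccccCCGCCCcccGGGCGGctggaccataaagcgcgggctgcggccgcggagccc
These stretches lie at chr3:145355741-145355990 on the minus strand for Ccn1, chr17:34889259-34889508 on the plus strand for Tnxb, chr11:55310907-55311156 on the minus strand for Sparc and chr13:92931327-92931576 on the minus strand for Thbs4. For Tnxb and Sparc the RefSeq start lies inside the bounds of the gene in the deposited table, so these stretches are not upstream of every annotated transcript.

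Motifs were searched on both strands as fixed letters. Ccn1 held the TATA box letters TATAAA from base -25 to -20 before its start, the TEAD letters GGAATG (read as CATTCC on this strand) from -103 to -98, and the cyclic AMP element core TGACG (read as CGTCA) from -58 to -54. Among 32851 promoters in the table, 12.4% held TATAAA, 12.6% held GGAATG and 17.8% held TGACG on either strand. Thbs4 held the GGAATG letters at -197 to -192 and at -192 to -187, a pair that shares 1 base. Tnxb held the AP-1 letters TGACTCA (read as TGAGTCA), found in 4.46% of promoters, and the stretch shown for Sparc held none of the motifs searched. The GC box GGGCGG, present in 32.7% of promoters, was found in Ccn1, Thbs4, Tnc and Itgbl1, and TATAAA was also found in Postn and Tnc. The E-box CACGTG bound by clock factors (6.02% of promoters) and the forkhead letters GTAAACA (3.17%) were in none of the 7 matched members, which says only that these letters are not in these windows.

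In WT control muscle Sparc was the most abundant member and Tnc the least. Levels are given as FPKM, which corrects for gene length and library size and so allows genes to be compared. Sparc ranged from 28.5 to 52.8 FPKM with a median of 35.9 in the 12 WT control mice. Thbs4 (9.92 to 24.9, median 15.8 FPKM) and Ccn1 (9.21 to 21.2, median 12.7 FPKM) came next and overlapped each other, but neither reached the lowest Sparc value. Tnxb (3.0 to 6.19, median 4.28 FPKM) and Ccn2 (2.09 to 4.51, median 2.75 FPKM) followed, also overlapping each other and below every Ccn1 value. The remaining 5 members lay under every Ccn2 value and their ranges overlapped. Their medians were 0.574 FPKM for Thbs1, 0.531 for Itgbl1, 0.514 for Ccn5, 0.293 for Postn and 0.255 for Tnc. Per library, Sparc was read from 963 to 3626 counts but Tnc from only 6 to 84, Ccn5 from 2 to 43, Itgbl1 from 7 to 66 and Postn from 14 to 178, so counting error alone is wide for these 4.

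**Figure D1:**
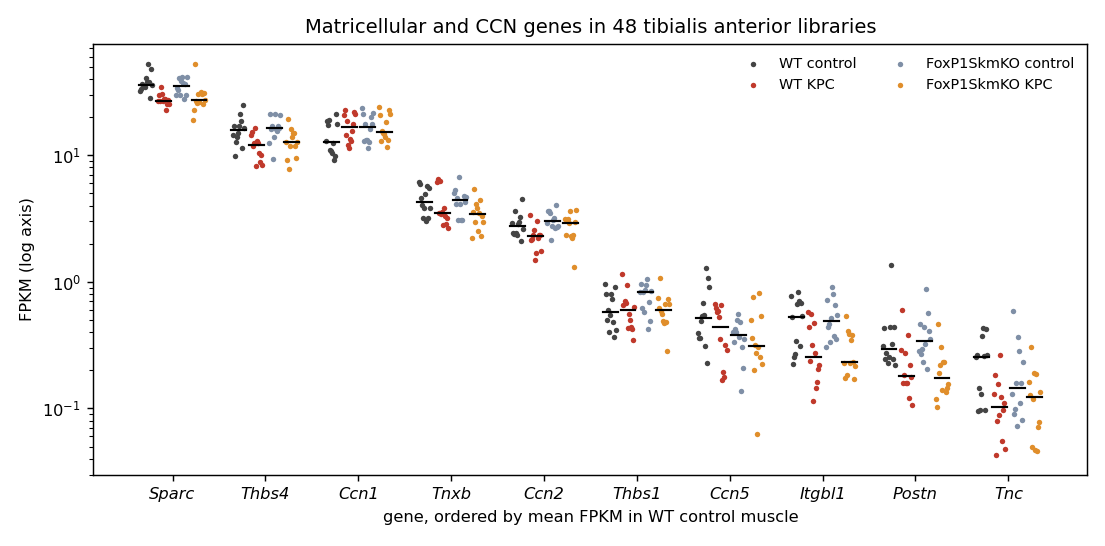
FPKM on a log axis for each of the 10 genes, ordered by mean level in WT control muscle; each point is 1 of 48 libraries, colored by genotype and condition, and black bars are group medians of 12 mice. Sparc, with a WT control median of 35.9 FPKM, stands above all other members, and the KPC points of Sparc, Postn and Itgbl1 sit lower than the control points in both genotypes while overlapping them.

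On the mm39 build Ccn1 lies at chr3:145352731-145355736 and Postn at chr3:54268530-54298458, and Ccn5 (chr2:163662781-163675066) and Thbs1 (chr2:117942357-117957614) share chromosome 2. The others are Ccn2 at chr10:24471340-24474581, Thbs4 at chr13:92888098-92931326, Tnc at chr4:63878022-63965252, Sparc at chr11:55285326-55314009, Tnxb at chr17:34879431-34938789 and Itgbl1 at chr14:123897383-124213030. All are protein-coding. Ccn1 overlaps Gm17501 on the opposite strand, a long noncoding gene with a mean of 0.419 FPKM, and without a stated strand setting the reads of both cannot be told apart. Other genes that overlap a member had means of at most 0.0603 FPKM where listed.

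Whole-library facts that bear on these values are few. Total counts per library ran from 14480867 to 20787784 (median 16602092), with similar ranges in the 4 genotype and condition groups. Foxp1 itself averaged 0.630 FPKM in WT control, 0.629 in WT KPC, 0.578 in FoxP1SkmKO control and 0.544 in FoxP1SkmKO KPC muscle, with overlapping ranges (edgeR genotype log2 fold change -0.11 ± 0.07 SE, adjusted p = 0.459, in control and -0.20 ± 0.07, adjusted p = 0.246, in KPC muscle). Gene-level counts do not check a deletion of exons, so the genotypes are those of the labels. Muscle fiber markers summed to between 43390 and 61380 FPKM in every library. The 2 mice of FoxP1SkmKO KPC CT18 were the least alike pair. A chi-square of their gene counts per degree of freedom was 17.4, against 5.15 to 12.77 in the other pairs. Replicate 1 of that pair had the lowest total counts (14480867) and the lowest Sparc (18.8 FPKM) and Tnxb (2.23 FPKM) of its group. 1 library, FoxP1SkmKO KPC CT22 replicate 1, stood apart from the other 11 of its group. It was the highest of the 12 for Sparc (52.1 FPKM against 18.8 to 31.4), Thbs4, Postn, Tnc, Tnxb, Itgbl1 and Thbs1. It was also the highest for the summed tendon markers (26.5 against 5.24 to 13.3 FPKM), fibroblast markers (236 against 89.6 to 147.5 FPKM) and collagens and other matrix partners (109 against 32.4 to 66.0 FPKM). Results that rest on it are given with and without it. Because it was the highest of its group for these members, leaving it out must lower their KPC values, and calls gained that way add no evidence.

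To ask which members differed between KPC and control muscle, the KPC effect was averaged over both genotypes and the 6 times, a comparison added after the data were seen. Sparc, Thbs4, Postn, Tnc and Itgbl1 were lower in KPC muscle (from -22.4% for Sparc to -44.5% for Postn), and no member was higher past the threshold. In edgeR's quasi-likelihood test, adjusted by Benjamini-Hochberg over all genes, 827 of 15637 genes (5.29%) differed and 380 (2.43%) were lower. The median log2 fold change of the 10 members was -0.32, against 0.003 over all genes tested, and 9 of the 10 values were negative. In whole muscle, fewer cells of a type and less RNA per cell cannot be told apart.

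Sparc, which binds collagen and is made by fibroblasts and endothelial cells, had the smallest relative change of these and the smallest adjusted p. Its FPKM ran from 28.5 to 52.8 (median 35.9) in WT control, from 22.9 to 34.3 (median 27.0) in WT KPC, from 27.8 to 41.2 (median 35.3) in FoxP1SkmKO control and from 18.8 to 52.1 (median 27.0) in FoxP1SkmKO KPC mice. All 12 WT KPC and 11 of 12 FoxP1SkmKO KPC mice lay below the median of their controls, and 9 and 7 of them lay below the lowest control. The 2 WT KPC mice were below the 2 controls at each of the 6 times. The averaged log2 fold change was -0.37 ± 0.06 (SE, edgeR adjusted p = 0.000417), and it stayed past the threshold in all 61 alternatives run. In WT muscle alone the value was -0.44 ± 0.09 (adjusted p = 0.00505), past the threshold in all 37 alternatives. In FoxP1SkmKO muscle it was -0.29 ± 0.09 (adjusted p = 0.112) with the CT22 replicate 1 library and -0.38 (adjusted p = 0.00786) without it.

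Postn (periostin), a collagen-binding protein of fibroblasts and tendon that marks matrix remodeling, had the largest averaged change. Its FPKM ran from 0.222 to 1.36 (median 0.293) in WT control, from 0.107 to 0.594 (median 0.180) in WT KPC, from 0.206 to 0.871 (median 0.339) in FoxP1SkmKO control and from 0.102 to 0.463 (median 0.173) in FoxP1SkmKO KPC mice. Of the KPC mice, 10 of 12 WT and 11 of 12 FoxP1SkmKO lay below their control median, and 8 and 7 lay below the lowest control. The highest value of all, 1.36 FPKM, was a single WT control mouse at CT30 whose group partner had 0.440 FPKM. The averaged log2 fold change was -0.85 ± 0.16 (edgeR adjusted p = 0.00132) and ran from -0.91 to -0.76 when any of the 48 libraries was left out.

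Itgbl1 was at -42.8% in the average, close to Postn. Its FPKM ran from 0.223 to 0.837 (median 0.531) in WT control, from 0.114 to 0.578 (median 0.254) in WT KPC, from 0.306 to 0.912 (median 0.491) in FoxP1SkmKO control and from 0.171 to 0.540 (median 0.231) in FoxP1SkmKO KPC mice. Control and KPC ranges overlapped in both genotypes, yet the KPC mean was lower at 11 of the 12 genotype and time pairs, the exception being WT muscle at CT22. The averaged log2 fold change was -0.80 ± 0.14 (edgeR adjusted p = 0.000622), with a range of -0.89 to -0.74 over the 48 fits that each left out 1 library.

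Of the tenascins, Tnc was lower and Tnxb did not pass. Tnc, a tenascin of tendon and of the muscle-tendon junction that is induced by load and injury, ranged from 0.0956 to 0.429 FPKM (median 0.255) in WT control and from 0.0427 to 0.264 (median 0.103) in WT KPC mice. In FoxP1SkmKO mice it ranged from 0.0720 to 0.584 (median 0.144) in control and from 0.0463 to 0.308 (median 0.122) in KPC muscle. The WT medians thus stood further apart than the FoxP1SkmKO medians, but the difference between genotypes did not pass the test (log2 -0.46 ± 0.40, edgeR adjusted p = 0.878). The averaged log2 fold change was -0.76 ± 0.20 (adjusted p = 0.0201). It lost the threshold in averages without CT18 (adjusted p = 0.0707), CT30 (0.0989), CT34 (0.0697) or CT38 (0.0965), and it was -0.91 (adjusted p = 0.00249) without the FoxP1SkmKO KPC CT22 replicate 1 library.

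Tnxb, which spaces collagen fibrils and whose loss causes a form of Ehlers-Danlos syndrome, had KPC medians below control medians in both genotypes without passing the threshold. The values were 3.0 to 6.19 FPKM (median 4.28) in WT control, 2.67 to 6.42 (median 3.48) in WT KPC, 3.08 to 6.69 (median 4.44) in FoxP1SkmKO control and 2.23 to 5.40 (median 3.41) in FoxP1SkmKO KPC mice. The averaged log2 fold change was -0.28 ± 0.09 (edgeR adjusted p = 0.0696). Without the FoxP1SkmKO KPC CT22 replicate 1 library it was -0.33. It was between -0.33 and -0.31 without any of 5 other single libraries (WT control CT34 replicate 2, WT KPC CT22 replicate 2, FoxP1SkmKO control CT26 replicate 1, FoxP1SkmKO KPC CT18 replicate 2 and FoxP1SkmKO KPC CT34 replicate 1). Each of these libraries was the higher KPC or the lower control mouse of its pair. Leaving it out thus had to lower the value and adds no evidence.

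Of the thrombospondins, Thbs4 was lower and Thbs1 was not shown to differ. Thbs4, which is abundant in tendon and at muscle attachments, ranged from 9.92 to 24.9 FPKM (median 15.8) in WT control and from 8.24 to 16.2 (median 12.1) in WT KPC mice. In FoxP1SkmKO mice it ranged from 9.29 to 21.2 (median 16.4) in control and from 7.79 to 19.2 (median 12.8) in KPC muscle. In both genotypes 11 of 12 KPC mice lay below the control median. The averaged log2 fold change was -0.39 ± 0.09 (edgeR adjusted p = 0.00593), and it passed in 60 of 61 alternatives, the exception being the average without CT38 (-0.28, adjusted p = 0.103). Thbs1, an activator of latent TGF-beta and an inhibitor of vessel growth, gave -0.17 ± 0.11 (adjusted p = 0.415). Its medians were 0.574 and 0.595 FPKM in WT control and KPC, and 0.833 and 0.60 FPKM in FoxP1SkmKO control and KPC mice, all with overlapping ranges.

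The CCN genes did not share a direction. Ccn2 had medians of 2.75 FPKM in WT control, 2.28 in WT KPC, 3.0 in FoxP1SkmKO control and 2.93 in FoxP1SkmKO KPC mice, and its averaged log2 fold change of -0.26 ± 0.08 missed the threshold (edgeR adjusted p = 0.0647). The Ccn2 value ran from -0.30 to -0.22 over the 48 fits that left out 1 library, and it passed with DESeq2 (adjusted p = 0.0394). Ccn5 gave -0.24 ± 0.19 (adjusted p = 0.532) at a median level of 0.38 FPKM over all 48 libraries. Ccn1 was the only member with a positive value, 0.14 ± 0.05 (adjusted p = 0.0669), and so stands apart from the other members in sign. This value missed the threshold in 52 of 61 alternatives and passed in 9. Among the 9 were DESeq2 (adjusted p = 0.0496) and the edgeR average without CT22 (adjusted p = 0.0159). Ccn1 is taken up by genotype and time below.

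**Figure D2:**
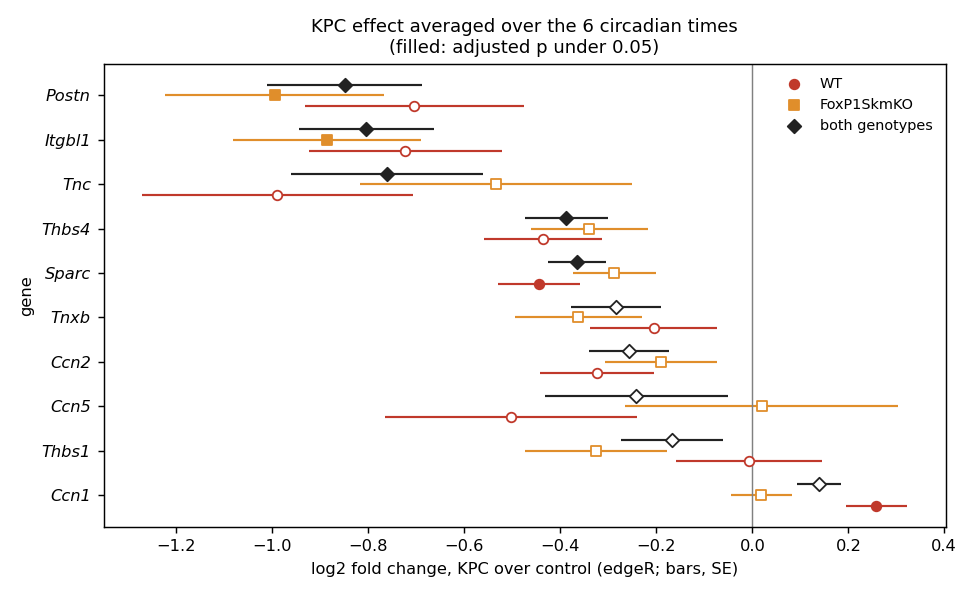
Log2 fold change of KPC over control for each gene, averaged over the 6 circadian times (x axis; bars, SE from edgeR), for both genotypes together and for WT and FoxP1SkmKO muscle separately; filled symbols have an adjusted p under 0.05. Itgbl1 and Postn lie furthest left (-0.80 and -0.85 for both genotypes together) and Ccn1 is the only gene to the right of 0 in that comparison.

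When the KPC effect was taken within each genotype, as a contrast of the same fit of 48 libraries, fewer members passed. In WT muscle Sparc was lower and Ccn1 was higher by 19.6% (log2 0.26 ± 0.06, edgeR adjusted p = 0.0311), 2 of 10 members where 1.79% of all genes (280) passed. In FoxP1SkmKO muscle Itgbl1 (-0.89 ± 0.20, adjusted p = 0.0307) and Postn (-0.99 ± 0.23, adjusted p = 0.0374) were lower, where 0.428% of all genes (67) passed. Itgbl1 in WT muscle (-0.72 ± 0.20, adjusted p = 0.0545), Thbs4 (-0.44 ± 0.12, adjusted p = 0.0589) and Tnc (-0.99 ± 0.28, adjusted p = 0.0623) fell just short. In FoxP1SkmKO muscle Thbs4 was at -0.34 ± 0.12 (adjusted p = 0.206). Without the FoxP1SkmKO KPC CT22 replicate 1 library the FoxP1SkmKO values were -0.38 for Sparc, -0.47 for Thbs4, -1.12 for Postn and -1.05 for Itgbl1. That library was the highest of its group for each of these members, so leaving it out had to lower their KPC values. A call in 1 genotype only is not a difference between genotypes: no member and none of the 15637 genes passed the test of that difference (1020 genes had an unadjusted p under 0.05), and the smallest p among members was 0.0123 for Ccn1 (adjusted p = 0.764).

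The FoxP1SkmKO calls depended on single mice and on the test used. Itgbl1 lost its call in 11 of 24 fits that left out 1 library, with adjusted p between 0.0573 and 0.103, and Postn in 13 of 24, with adjusted p between 0.0541 and 0.139. For both genes these were control CT18, CT22, CT26, CT34 and CT38 replicate 2, and KPC CT18, CT22, CT26 and CT34 replicate 2 and CT38 replicate 1. For Itgbl1 they also held control CT30 replicate 1, and for Postn control CT30 replicate 2, KPC CT26 replicate 1 and KPC CT30 replicate 1. The log2 fold change stayed between -1.05 and -0.76 for Itgbl1 and between -1.12 and -0.84 for Postn in these fits. Averages without CT18, taken from the same fit, gave adjusted p of 0.212 for Itgbl1 and 0.247 for Postn, and those without CT30 gave 0.158 and 0.160. Without CT38 the values were 0.0888 for Itgbl1 and 0.115 for Postn, and without CT34 Postn had 0.0557. Both calls were also lost with limma, with adjusted p of 0.0632 on log2(FPKM + 1) and 0.0641 on log2(FPKM + 0.1) for Itgbl1 and of 0.179 and 0.0999 for Postn.

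Collagens and the markers of tendon and of fibroblasts were also lower in KPC muscle. Of 11 collagens and other matrix partners, 8 were lower in the average over both genotypes (Col1a1 -0.80, Col1a2 -0.73 and Col3a1 -0.71 log2) and none was higher. Of 8 tendon markers, 4 were lower (Kera -1.27, Tnmd -1.21, Col12a1 -0.88 and Fmod -0.66 log2) and none was higher, with a list median of -0.84. Of 10 fibroblast markers, 7 were lower, Lum (-0.64), Dcn (-0.49) and Pdgfra (-0.43) among them, and Ly6a was higher (0.38). The same test called 5.29% of all genes, and Col1a1, Col3a1 and Dcn are in both the fibroblast and the matrix list.

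The summed markers showed how far single muscles differed in these tissues. Summed tendon markers ranged from 6.40 to 37.1 FPKM (median 19.1) in WT control, from 5.75 to 26.1 (median 8.76) in WT KPC, from 8.27 to 30.3 (median 10.9) in FoxP1SkmKO control and from 5.24 to 26.5 (median 8.15) in FoxP1SkmKO KPC mice. Summed fibroblast markers had medians of 186, 133, 167 and 129 FPKM in the same order, with ranges that all overlapped. No tendon or fibroblast marker was at 0 in every library, and the least abundant tendon marker, Mkx, was at 0 in 4. The KPC groups thus had lower medians for both marker lists as well as for Sparc, Thbs4, Postn, Tnc and Itgbl1, and the part of these cell types in the members' values was not tested.

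At single times each comparison had 2 mice against 2, and with edgeR no member passed in any of the 12 comparisons. The single-time results depended on the method. Of the 120 pairs of a member and a comparison, DESeq2 on the 4 libraries of a time passed 10, which were of Ccn1, Thbs4, Sparc and Tnxb, and DESeq2 on all 48 libraries passed 1, Ccn1 at CT34 in WT muscle. edgeR without the filter on low counts passed 31, of 9 members, but that setting also raised the counts over all genes, as given below. The share of all genes that passed is not given for these settings, so the 10, 1 and 31 are not read as results about the members. In the main edgeR fit at CT26, the time with the most calls, 7.17% of all genes (1121) passed in WT and 0.0384% (6) in FoxP1SkmKO muscle. The lowest unadjusted p of Sparc, Postn and Itgbl1 fell at CT30 and that of Thbs4 and Tnc at CT38. In WT muscle at CT38, Thbs4 was 24.9 and 16.5 FPKM in controls and 10.1 and 8.41 in KPC mice (log2 -1.16 ± 0.30, edgeR adjusted p = 0.191, DESeq2 adjusted p = 5.33e-07 on the 4 libraries). At the same time Tnc was 0.425 and 0.265 FPKM in controls and 0.111 and 0.0479 in KPC mice (-2.11 ± 0.69, adjusted p = 0.294). In these pairs both KPC mice lay well below both controls. Itgbl1 at CT30 in FoxP1SkmKO muscle was 0.912 and 0.801 FPKM in controls and 0.230 and 0.345 in KPC mice (-1.56 ± 0.46, adjusted p = 0.290). Postn at CT30 in WT muscle was 0.440 and 1.36 FPKM in controls and 0.160 and 0.382 in KPC mice (-1.73 ± 0.51, adjusted p = 0.623). At CT26 in WT muscle, by contrast, Thbs4 was 14 and 15 FPKM in controls and 16.2 and 8.24 in KPC mice, and the groups overlapped.

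**Figure D3:**
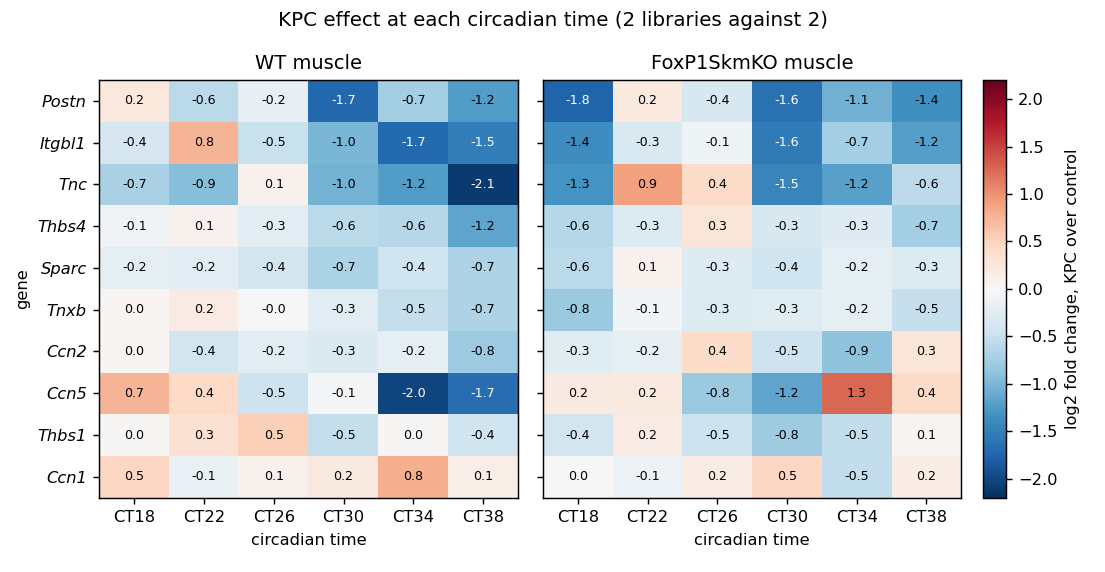
Log2 fold change of KPC over control (color, red higher and blue lower) for each gene at each circadian time in WT and FoxP1SkmKO muscle, with 2 libraries against 2 in each cell. Blue fills most cells of Sparc, Thbs4, Postn, Tnc and Itgbl1, and the Ccn1 cells at CT34 have opposite colors in the genotypes (0.80 in WT and -0.54 in FoxP1SkmKO muscle).

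Whether the KPC effect depended on time was tested across the 6 times, and no member passed in either genotype. In WT muscle 0.883% of all genes (138) passed, and the smallest adjusted p among members was 0.159 for Ccn1, followed by 0.267 for Itgbl1 and 0.298 for Ccn5. Ccn5 had its widest pair of controls at CT34, 1.28 and 0.227 FPKM, against 0.192 and 0.177 in KPC mice, and this pair of controls by itself spanned most of the range of the gene. In FoxP1SkmKO muscle no gene passed with edgeR (1526 had an unadjusted p under 0.05, and DESeq2 called 43), and the smallest adjusted p among members was 0.284 for Ccn1.

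The genotypes were also compared in control muscle, without a tumor. Because the strain of the WT mice was not settled, deletion of Foxp1 in fibers, Cre and background cannot be told apart in this comparison. Ccn1 was the only member of the 10 that passed, 18.8% higher in FoxP1SkmKO control mice (log2 0.25 ± 0.06, edgeR adjusted p = 0.0232), where 3.44% of all genes (538) passed. Its FPKM ran from 9.21 to 21.2 (median 12.7) in WT control and from 11.3 to 23.5 (median 16.8) in FoxP1SkmKO control mice, so the ranges overlapped widely. In the average without CT34 the value was 0.11 (adjusted p = 0.409), and without CT18 or CT26 it was 0.20 (0.142) or 0.25 (0.0522). The call was also lost in 8 of 24 fits that left out 1 library, at adjusted p of 0.0517 to 0.0738 (WT control CT18, CT30 and CT34 replicate 1 and CT38 replicate 2, and FoxP1SkmKO control CT22, CT30, CT34 and CT38 replicate 2). Ccn5 (-0.65 ± 0.26, adjusted p = 0.177) and Thbs1 (0.30 ± 0.15, adjusted p = 0.288) had the next smallest p. In KPC muscle no member differed past the threshold between genotypes, where 0.320% of all genes (50) passed, and Ccn1 was at 0.01 ± 0.06.

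The WT control group entered both Ccn1 calls, the KPC effect in WT muscle and the genotype effect in control muscle, so these are not separate observations. WT control mice had a mean Ccn1 level of 14.2 ± 4.22 FPKM (SD, n = 12), and the other groups had 16.9 ± 4.15 (WT KPC), 16.7 ± 4.17 (FoxP1SkmKO control) and 16.9 ± 4.25 (FoxP1SkmKO KPC). WT control was thus the lowest of the 4 means, by less than the SD within any group. The WT KPC effect was lost without CT18 (0.22, adjusted p = 0.114), CT30 (0.27, adjusted p = 0.0583) or CT34 (0.15, adjusted p = 0.321). It was also lost in 12 of 24 fits that left out 1 library (WT control CT18, CT22, CT26, CT30 and CT34 replicate 1 and CT38 replicate 2, WT KPC CT18, CT22, CT26, CT34 and CT38 replicate 2 and CT30 replicate 1), at adjusted p of 0.0533 to 0.0756.

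At CT34 the Ccn1 response to KPC ran in opposite directions in the genotypes. WT controls had 9.21 and 9.91 FPKM and WT KPC mice 15.5 and 17.6 FPKM. FoxP1SkmKO controls had 16.0 and 20.1 FPKM and FoxP1SkmKO KPC mice 11.6 and 13.2 FPKM. Groups did not overlap within either genotype, with KPC over control ratios of 1.73 in WT and 0.687 in FoxP1SkmKO muscle. In the test of the difference between genotypes at each time, a comparison added after the data were seen, Ccn1 was the only gene called at CT34 (1 of 15637 genes, 0.0064%). The difference was 1.34 ± 0.23 on the log2 scale (edgeR adjusted p = 0.0203). This p was adjusted over the genes at CT34 only, so it does not cover the choice of CT34 among the times tested. With 2 mice per group, 5 of the 8 fits that left out 1 mouse lost the call, and the difference itself stayed between 1.17 and 1.49. Ccn1 at CT34 within WT muscle alone (0.80 ± 0.16, adjusted p = 0.156) and within FoxP1SkmKO muscle alone (-0.54 ± 0.16, adjusted p = 1.0) did not pass with edgeR. In WT muscle it passed with DESeq2, with adjusted p = 0.0317 on 48 libraries and 0.00171 on the 4 libraries of that time.

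A 24 h cosine shared by the 4 groups passed for 34.9% of all genes (5455) and for 2 of the 10 members, Ccn1 and Tnxb. Ccn1 had an amplitude of 0.39 on the log2 scale and a fitted peak at CT40.5, early in the active phase after CT38 (edgeR adjusted p = 1.1e-08). Tnxb had an amplitude of 0.23 with a peak at CT19.7 (adjusted p = 0.0209), and Thbs1 missed the threshold (adjusted p = 0.0549). Sparc, Thbs4, Postn, Tnc and Itgbl1, the members lower in KPC muscle, had adjusted p of 0.295 to 0.948 for a shared rhythm.

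Within groups, a 24 h sinusoid was fitted to the FPKM of 12 mice, with an unadjusted F test p under 0.01 as the threshold, and the same statistic was tested by 100000 permutations of the mice over the times. Ccn1 passed in WT KPC muscle (amplitude 5.36 FPKM, peak CT39.9, n = 12, F test p = 2.05e-05, adjusted p = 0.0216, permutation test p = 0.00019) and in FoxP1SkmKO control muscle (amplitude 4.92 FPKM, peak CT39.8, F test p = 0.00163, adjusted p = 0.121, permutation test p = 0.00406). In WT control muscle it had an amplitude of 4.30 FPKM and a peak at CT18.0 or, a cycle later, CT42.0 (F test p = 0.0239, permutation test p = 0.0349), and in FoxP1SkmKO KPC muscle 3.87 FPKM and CT40.4 (F test p = 0.0665, permutation test p = 0.0742). The amplitudes and peaks of the 4 groups lay close together although only a pair of them passed, and a change of rhythm between groups was not tested by these fits. Without WT control CT18 replicate 1, Ccn1 passed in WT control muscle as well (F test p = 0.00303, n = 11). Its mean was highest at CT18 or CT38 in every group, with 20.9 and 22.9 FPKM in WT KPC mice at CT18. Its mean was lowest at CT26 in WT KPC mice (12.1 and 11.3 FPKM), at CT30 in FoxP1SkmKO controls (11.3 and 12.6 FPKM) and at CT34 in WT control and FoxP1SkmKO KPC mice. Ccn5 passed in FoxP1SkmKO control muscle (amplitude 0.129 FPKM, peak CT24.8, F test p = 0.00836, permutation test p = 0.00586), but 11 of 16 alternatives lost that call. In WT KPC muscle Ccn5 did not pass (F test p = 0.0315, permutation test p = 0.0424), but it did without WT KPC CT30 replicate 1 (F test p = 6.35e-05, n = 11). No other member passed in any group, and the share of all genes that passed was 4.92% in WT control, 4.22% in WT KPC, 4.07% in FoxP1SkmKO control and 2.63% in FoxP1SkmKO KPC muscle.

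**Figure D4:**
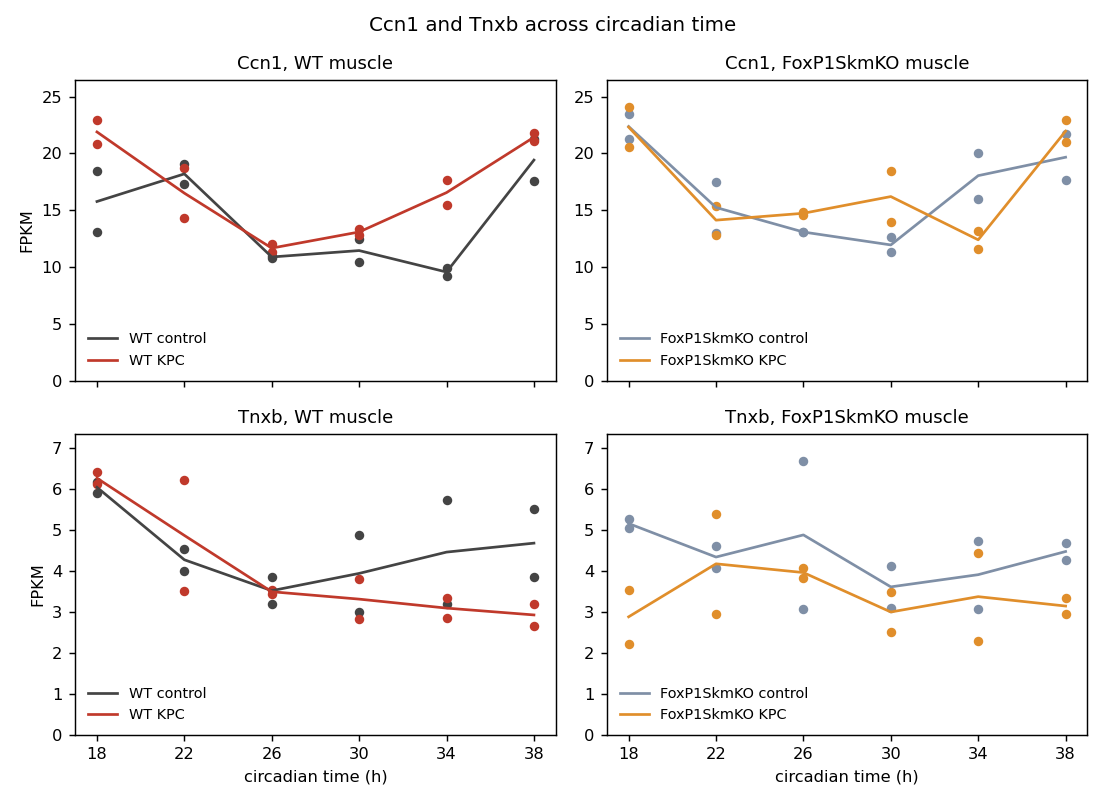
FPKM of Ccn1 and Tnxb at each circadian time (x axis, hours) in WT and FoxP1SkmKO muscle; points are single mice, 2 per condition and time, and lines join the condition means. The mean of Ccn1 is highest at CT18 or CT38 in every group, and at CT34 its control points lie below the KPC points in WT muscle (9.21 and 9.91 FPKM) and above them in FoxP1SkmKO muscle (16.0 and 20.1 FPKM).

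Near its fitted peak Tnxb was not equally high in every group, and control by the clock was not tested. WT mice at CT18 had 6.19 and 5.91 FPKM in controls and 6.12 and 6.42 in KPC mice, and WT KPC CT22 replicate 2 had 6.24 FPKM. FoxP1SkmKO controls had 5.05 and 5.27 FPKM at CT18, but the FoxP1SkmKO KPC mice had 2.23 and 3.54 FPKM, with the groups apart. That difference within FoxP1SkmKO muscle did not pass (log2 -0.82 ± 0.33, edgeR adjusted p = 0.245), nor did Tnxb have an unadjusted p under 0.01 for rhythm in any single group.

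For each member, the genes whose log2 CPM was most like its own were found across the 48 libraries. These correlations are descriptions over libraries that share genotype, condition, time and cell makeup. Sparc and Postn were most like collagen genes: Sparc had Pearson r of 0.839 with Col1a2, 0.838 with Col1a1 and 0.804 with Col3a1, and Postn had 0.799 with Col12a1, 0.773 with Col1a1 and 0.741 with Col1a2. Thbs4, Tnc and Itgbl1 were most like tendon genes. The nearest genes were Itgbl1 (0.824), Cilp2 (0.770) and Tnmd (0.765) for Thbs4, and Chad (0.789), Fmod (0.768) and Tnmd (0.749) for Tnc. For Itgbl1 they were Col12a1 (0.866), Cilp2 (0.851) and Fmod (0.850). Tnmd, Fmod, Chad and Col12a1, the last also the nearest gene of Postn, are 4 of the 8 tendon markers. Thbs4 and Itgbl1 were the most alike pair of members, and their r was 0.781 after group means were removed.

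The other members had different company. Tnxb was most like Gsn (0.907), Abca9 (0.900) and Abca8a (0.893), of which Gsn is among the fibroblast markers. Ccn5 was most like Adam33 (0.631), Fbln1 (0.627) and Serpinf1 (0.611), and Thbs1 like Cd93 (0.688), Wwtr1 (0.676) and Bgn (0.673). Ccn2 was most like Col12a1 (0.612), Plekhh2 (0.567) and Thbs4 (0.532). Ccn1 was most like Smad7 (0.709), an inhibitor of TGF-beta signaling, Arrdc3 (0.709) and Atoh8 (0.695). With the other 9 members Ccn1 had r between -0.253, with Sparc, and 0.209, with Ccn2. After group means were removed, its r ran from -0.023, with Tnxb, to 0.343, with Postn, and was 0.251 with Sparc.

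Other genes of the same pathways were read from fixed lists, beside the 5.29% of all genes that passed. Of 24 other matricellular genes, 20 could be tested and 3 were lower in KPC muscle (Smoc2 -0.40, Fstl1 -0.35 and Sparcl1 -0.15 log2 in the average over both genotypes), with none higher. Smoc2 and Sparcl1 are relatives of Sparc. Of 15 receptors, mostly integrins, only Itgb5 passed, and it was higher (0.15). Of 16 TGF-beta genes, Ltbp4, which tethers latent TGF-beta to the matrix, was lower (-0.34, edgeR adjusted p = 2.77e-05), and Ltbp3 and Smad4 were higher by 0.09 each. Of 15 YAP and TEAD genes, Ajuba (-0.22) and Wwtr1 (-0.09) were lower, and of 15 immediate early genes Junb was higher (0.31). The 1 of 15 receptors and 1 of 15 immediate early genes lie near the share of all genes.

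In the genotype comparison in control muscle, in which 3.44% of all genes passed, calls fell in several lists. Of the 15 immediate early genes, 5 were higher in FoxP1SkmKO control mice, led by Fos (1.21 log2), Klf4 (0.57) and Nr4a1 (0.50), all 15 values were positive, and none passed as lower. Of the YAP and TEAD genes, 3 were higher (Amotl2 0.33, Amotl1 0.18 and Wwtr1 0.13). Ltbp3 of the TGF-beta list was higher (0.14), and Smoc1 of the other matricellular list was higher (0.65). Among receptors Itgb5 (0.24) was higher and Itgb1 (-0.13) lower, and among matrix partners Lox, which crosslinks collagen, was lower (-0.57). Tnnt3 of the muscle fiber markers was lower (-0.14). No tendon or fibroblast marker passed in this comparison, in which Ccn1 was the only member called. When KPC was compared with control within genotypes, WT muscle had Col1a1, Col1a2, Col3a1, Col5a1 and Col6a1 of the matrix partners lower and Kera (-1.56), Tnmd (-1.42) and Col12a1 (-0.89) of the tendon markers lower. Ltbp4 was lower in both genotypes (-0.33 in WT and -0.35 in FoxP1SkmKO muscle), and the fibroblast marker Lum (-0.79) was lower in FoxP1SkmKO muscle.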

How the data were processed

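Poly(A) RNA of 48 TA muscles was sequenced as paired reads. Per the file headers and the study's methods, the authors aligned reads to mm39, counted them per gene and deposited raw counts for each library in 12 comparison tables, together with a table of FPKM values for all libraries. The methods name STAR and HTSeq, whereas the submitters' processing notes name HISAT2 2.0.5 and DESeq2 1.20.0, so which aligner made the deposited counts was not settled. The strand setting of the counting is not given in the sources used here. The tables also hold the authors' normalized group means, fold changes and p-values, which were not used.

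Groups came from the sample labels. The deposited counts were fitted in edgeR 4.0.16 (R 4.3.3) with its quasi-likelihood test, TMM scaling and its default filter on low counts, with a coefficient for each of the 24 groups, and p-values were Benjamini-Hochberg adjusted over 15637 genes (threshold 0.05). KPC and genotype effects were averages over the 6 times, or contrasts at single times. Rhythm was tested by a 24 h least-squares sinusoid on FPKM within each group (unadjusted p under 0.01, as in the study, with a permutation p beside it) and by a cosine term shared by 48 libraries in edgeR. Promoters were matched by symbol for 7 of 10 members, and Ccn2, Ccn5 and Thbs1 had no entry. Scripts were tested on simulated data first. Total counts of 14480867 to 20787784 per library give the members 2 to 3626 counts each, and intervals from them would cover counting error only.

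The 10 members, the pathway lists and the marker lists were chosen with earlier results of these data known, and the KPC effect over both genotypes and its difference between genotypes at each time were added after the data were seen. All members are named, and a few genes of the other lists are not reported here. Of the pathway lists at most 3 called genes per list and comparison are named by size of change (all 5 called matrix partners in WT muscle are named beyond that rule), and for each member the 3 genes with the highest Pearson r of log2 CPM (prior count 2) among genes with a mean log2 CPM above 0. Alternatives were DESeq2 1.42.0, limma 3.58.1 on log2(FPKM + 1) and log2(FPKM + 0.1), other scalings, no filter and a replicate block. Further alternatives left out each library, or left each time out of the averages while the fit kept every library.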

Additional observations from a re-analysis of the deposited data

Results flagged for a closer look

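Ccn1 at CT34 was singled out because the effect of KPC differed between the genotypes in a test of the difference itself. The difference, WT minus FoxP1SkmKO, was 1.34 ± 0.23 on the log2 scale (edgeR quasi-likelihood test, adjusted p = 0.0203, 1 gene of 15637 at that time). Ccn1 was higher in both KPC mice than in both controls in WT muscle and lower in both in FoxP1SkmKO muscle. The adjusted p was 0.0255 with DESeq2's size factors in edgeR, 0.0481 with total counts, 0.00494 with the replicate block and 0.000185 with DESeq2. It rose to 0.394 without WT control CT34 replicate 1, 0.0976 without WT control CT34 replicate 2, 0.375 without WT KPC CT34 replicate 2, 0.577 without FoxP1SkmKO control CT34 replicate 2 and 0.165 without FoxP1SkmKO KPC CT34 replicate 1. The comparison was added after the data were seen, and its p-values were adjusted over genes within each time only. The adjusted p at CT34 thus does not cover the choice of that time among the times tested.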

How the results depend on the processing

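Signs were compared across the alternatives for the KPC effect over both genotypes of every member. Beyond that, they were compared only for member results picked for a low unadjusted p. None of these changed sign, which that choice made likely. Values near no change were left out, such as the KPC effects of Thbs1 in WT (log2 -0.007) and Ccn5 in FoxP1SkmKO muscle (0.019). Whether those keep their sign was not tested. Sparc, Postn and Itgbl1 stayed past the threshold in all 61 alternatives of the KPC effect over both genotypes, Thbs4 in 60 and Tnc in 57. The calls within a genotype rest on fewer mice, and Ccn2, Ccn5, Thbs1, Postn, Tnc and Itgbl1 have median counts of 135 or fewer per library, which limits what a small change can show. Counting is at the gene level, so isoforms are not resolved. Causes of the differences between settings were not tested.

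Counts of called genes also moved with the settings. They were 280 (KPC effect in WT), 67 (in FoxP1SkmKO), 0 (their difference), 538 (genotype effect in control), 50 (in KPC), 1126 and 10 (KPC effect summed over single times in WT and FoxP1SkmKO), 138 and 0 (time dependence), 56 (difference at single times, summed) and 827 (KPC effect over both genotypes). Without the filter on low counts the first 10 became 794, 527, 104, 933, 470, 2120, 1678, 806, 905 and 915. DESeq2 on 48 libraries gave 161 for KPC in FoxP1SkmKO muscle, 116 for genotype in KPC, 125 for single times in FoxP1SkmKO, 368 and 43 for time dependence and 146 for the difference at single times. DESeq2 on the 4 libraries of a time gave 193 for single times in FoxP1SkmKO, and total counts gave 108 for the difference at single times. limma on log2(FPKM + 1) gave 166 for KPC in WT, 22 in FoxP1SkmKO and 28 for genotype in KPC muscle, and on log2(FPKM + 0.1) 173, 20 and 28.

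Averages without a time gave the following. Without CT18 there were 3 for KPC in FoxP1SkmKO, 323 for genotype in control, 20 for genotype in KPC and 509 for KPC over both. Without CT22 there were 130 for KPC in FoxP1SkmKO and 138 for genotype in KPC, and without CT26 138 for KPC in WT. Without CT30 there were 118 for KPC in WT, 15 in FoxP1SkmKO, 0 for genotype in KPC and 487 over both. Without CT34 there were 157 for KPC in WT, 107 in FoxP1SkmKO and 27 for genotype in KPC. Without CT38 there were 21 for KPC in FoxP1SkmKO, 268 for genotype in control, 21 for genotype in KPC and 503 over both. With an adjusted p under 0.05 as the threshold, rhythmic genes were 150 in WT control, 130 in WT KPC, 119 in FoxP1SkmKO control and 33 in FoxP1SkmKO KPC muscle.

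Leaving out 1 library at a time gave 74 to 421 for KPC in WT, 17 to 244 in FoxP1SkmKO, 0 to 4 for their difference, 310 to 787 for genotype in control, 18 to 203 for genotype in KPC, 94 to 1369 and 4 to 283 for single times, 1 to 228 and 0 to 45 for time dependence and 3 to 227 for the difference at single times. The extremes for KPC in WT were without WT KPC CT38 replicate 2 (74) and replicate 1 (421), and the highest in FoxP1SkmKO was without KPC CT22 replicate 1 (244).

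Replicate numbers were shared by all groups. Over 276 pairs of groups the correlation of same-numbered deviations ran from -0.324 to 0.234 (median -0.0038), so the numbers do not pair mice. A fit with the replicate number as a block gave 271, 71, 548 and 43 genes for KPC in WT, KPC in FoxP1SkmKO, genotype in control and genotype in KPC and 824 for KPC over both. Of the members it moved only Ccn1 in the last across the threshold (adjusted p = 0.0433).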

Other observations

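Markers of cell types other than tendon and fibroblasts were read beside the members in the KPC effect averaged over both genotypes, where 5.29% of all genes passed edgeR's test. Of 7 endothelial markers Cdh5 and Kdr were lower, and of 7 mural and smooth muscle markers Cspg4 and Rgs5 were lower. Of the Schwann cell markers, Mbp was lower. Fabp4 of the 5 adipocyte markers was lower. All 7 macrophage markers had positive values, but none passed, and none of the 4 satellite cell markers or 3 blood markers passed. Of 8 muscle fiber markers only Ttn passed, and it was higher by 0.11 on the log2 scale.

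The lists also differed in shared 24 h rhythm, for which 34.9% of all genes passed. All 7 macrophage markers, 7 of 10 fibroblast markers, 12 of 16 TGF-beta genes, 9 of 11 matrix partners and 11 of the 20 other matricellular genes tested were rhythmic. None of the 8 tendon markers was, nor any of the 4 satellite cell markers. Of the members 8 of 10 did not pass, Sparc and Postn among them.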
